A study of Rattus norvegicus with 26 samples.

Results

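The dentate gyrus (DG) of Dox + ABT rats was compared directly with that of Dox rats, to ask which genes and functions differ when the senolytic ABT-263 is added to doxorubicin (Dox). The comparison held 16 of the 26 libraries of the study, 8 from Dox + ABT rats and 8 from Dox rats, and the members were chosen by their treatment label. All animals were male F344 rats, 6 months old when treatment began, and 1 library was made from the DG of a single hemisphere of each rat. Rats of both groups received 2 mg/kg Dox by intraperitoneal injection in each of 4 weeks, and Dox + ABT rats also received ABT-263 (navitoclax) at 12 mg/kg by gavage in courses of 5 days. The 10 Veh rats received neither drug but were gavaged with the vehicle, and they belonged to a study of brain aging. Whether rats given Dox alone were gavaged is not given in the sources used here. The Veh values stand beside the others as the level without either drug. They add to the estimate of the spread and, in the fit with a covariate described below, to the slope of that covariate. They are compared with no group, since Dox against Veh and Dox + ABT against Dox use the same Dox rats.

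Dox is an anthracycline that intercalates into DNA and poisons topoisomerase II, and it leaves some dividing cells in senescence. Senescent cells stop dividing but stay alive, in part through the anti-apoptotic proteins of the BCL-2 family, and they secrete cytokines, growth factors and proteases. ABT-263 occupies the groove of BCL-2, BCL-XL and BCL-w that holds the BH3 helix of pro-apoptotic partners, so that cells that depend on these proteins die. The DG is built of granule cells, with interneurons, astrocytes, oligodendrocytes, microglia and vessels between them, and RNA of the whole region was measured. In such tissue, fewer cells of a type and less RNA per cell cannot be told apart.

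A value is a normalized count, the reads of a gene divided by the size factor of its library. For the 15595 genes whose mean over all rats reached 5, log2(normalized count + 1) was tested with limma in 1 fit of all 26 rats, without a covariate and again with the share of each library taken by cytosolic ribosomal proteins. A difference is Dox + ABT minus Dox on this log2 scale, which understates the change of low genes. A gene is called at p under 0.01 with no adjustment, the threshold that the study used against Veh. Between Dox and Dox + ABT the study used p under 0.05 for a chosen set of genes. Libraries held an estimated 10.2 to 24.3 M reads each. The ribosomal protein share was 1.26% ± 0.357 (SD, n = 8) in Dox, 1.10% ± 0.126 (SD, n = 8) in Dox + ABT and 1.47% ± 0.463 (SD, n = 10) in Veh. The difference of -0.159 percentage points between Dox + ABT and Dox did not pass the two-sided exact permutation test (p = 0.27). The 5 granule cell markers examined were read in every rat, with a summed level of 9517 to 12985 normalized counts in Dox and 8683 to 11421 in Dox + ABT, and 0 of 5 was called. Markers of other principal neurons, Fibcd1, Wfs1, Mpped1, Cpne4 and Calcrl, summed to 6175 to 17782 in Dox and 6496 to 23998 in Dox + ABT, and 0 of 5 was called. Astrocyte markers summed to 29841 to 37275 in Dox (median 31848) and 34806 to 50607 in Dox + ABT (median 37832), with 1 of 5 called higher, and oligodendrocyte markers to 43508 to 68103 in Dox (median 52794) and 46007 to 98587 in Dox + ABT (median 57108), also with 1 of 5 called higher. Of the microglia, vessel and blood markers 0 was called. Their sums were 1953 to 3418 in Dox (median 2657) and 2188 to 3851 in Dox + ABT (median 2479) for microglia and 1168 to 2393 in Dox (median 1995) and 753 to 2079.7 in Dox + ABT (median 1287) for vessel cells. For blood they were 3610.2 to 129837 in Dox (median 19909) and 3175 to 11582 in Dox + ABT (median 5888), the widest range of these sets within Dox. The part of cell composition in the differences below was not tested.

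Within the Dox group 2 pairs of rats stood apart. Dox rats 1 and 2 had the highest levels of acute inflammatory and glucocorticoid response genes, and Dox rats 5 and 7 had the most haemoglobin RNA. The level of a gene list in a rat is given as the mean of its members on the log2 scale, minus the mean over all 26 rats. For 28 glucocorticoid response genes it was 1.03 and 1.06 in Dox rats 1 and 2 and -0.202 to 0.204 in the other 6 Dox rats, against -0.345 to -0.059 in Dox + ABT. For 12 haemoglobin and red cell genes it was 2.83 and 3.33 in Dox rats 5 and 7, -0.883 to 0.850 in the other 6 Dox rats and -1.12 to 0.141 in Dox + ABT. The plot of list levels shows both pairs. These rats were singled out after the values had been seen, so counts over all genes and part of the lists and genes below are also given without them. Of 81 genes named by rule and called without the covariate, 54 were called without Dox rats 1 and 2, 71 without Dox rats 5 and 7 and 37 without all 4.

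**Figure D1:**
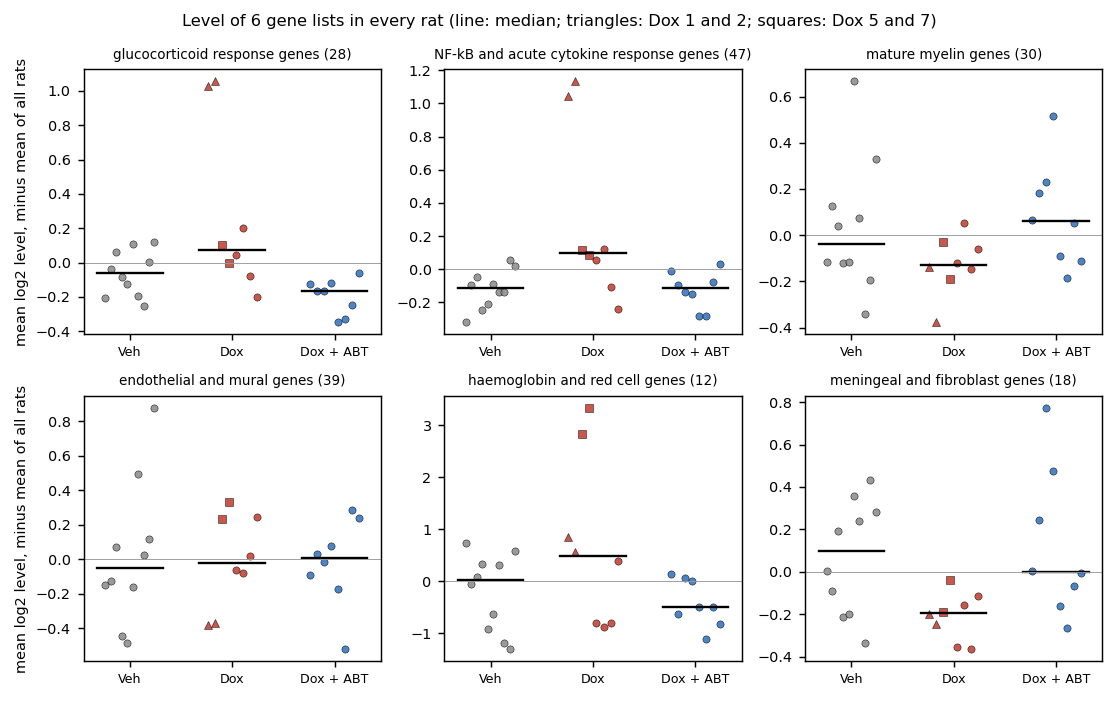
Level of 6 gene lists in every rat, as the mean over members of log2(normalized count + 1) minus the mean over all 26 rats (vertical axis), by group, with the number of tested members in brackets, 1 symbol per rat and a line at the group median. Dox rats 1 and 2 (triangles) reach 1.03 to 1.13 in the glucocorticoid and NF-kB lists, and Dox rats 5 and 7 (squares) reach 2.83 and 3.33 in the haemoglobin list.

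Without the covariate 629 genes were called, 4.03% of those tested, of which 267 (1.71%) were higher and 362 (2.32%) lower in Dox + ABT than in Dox. With the ribosomal share in the fit 736 genes (4.72%) were called, 305 (1.96%) higher and 431 (2.76%) lower. Both fits called 535 genes in the same direction, which is 85.1% of the 629 and 72.7% of the 736. The differences of the 629 genes had a median size of 0.45 and ran from -3.40 to 2.59, and 27 genes were higher and 32 lower by more than 1. After Benjamini-Hochberg adjustment over all genes 0 genes passed 0.05 in limma without the covariate, where 1974 had an unadjusted p under 0.05, and 4 genes passed with it: Dusp15, Acer2, Col3a1 and Col5a3. Leaving out 1 rat in turn gave 0 to 7 such genes without and 0 to 57 with the covariate, and without Dox rats 1 and 2 the number was 0 in both fits. It was 0 in both as well when the Dox and Dox + ABT rats were fitted alone, without the Veh rats. In 7 genes (0.0449%) every Dox + ABT rat was above every Dox rat, and in 14 genes (0.0898%) every Dox + ABT rat was below. Without Dox rats 1 and 2 the calls were 179 higher (1.15%) and 284 lower (1.82%), and 295 of the 629 remained. Without Dox rats 5 and 7 they were 410 higher (2.63%) and 522 lower (3.35%), and without all 4 rats 221 higher (1.42%) and 279 lower (1.79%), with 417 and 192 of the 629 kept.

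**Figure D2:**
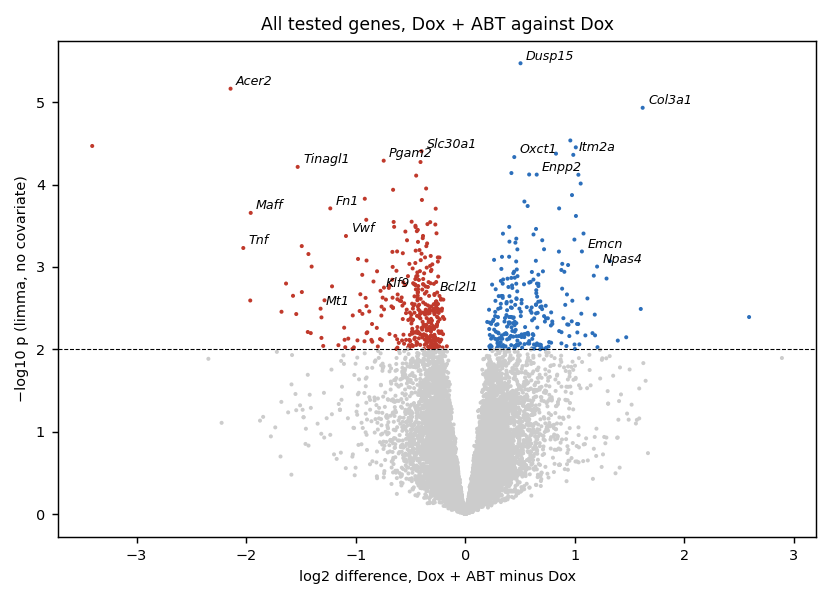
Log2 difference of Dox + ABT minus Dox (horizontal axis) and -log10 of the unadjusted limma p (vertical axis) for 15595 genes, with 267 genes called higher in blue, 362 called lower in red and the dashed line at p = 0.01. Dusp15 and Acer2 have the smallest p, 3.4e-06 and 6.9e-06.

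**Figure D3:**
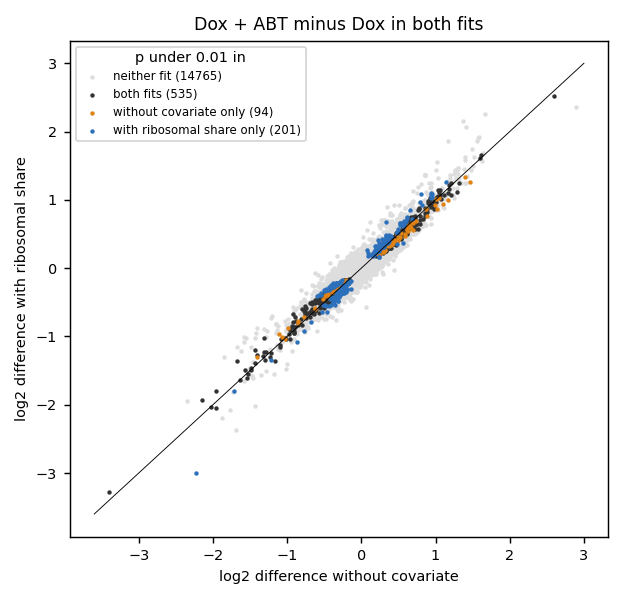
Log2 difference without (horizontal axis) and with (vertical axis) the ribosomal protein share as a covariate, 1 point per gene, coloured by the fit in which its p was under 0.01. The 535 genes called in both lie near the line of equality, and 94 were called only without and 201 only with the covariate.

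Acer2, which encodes a Golgi ceramidase that releases sphingosine from ceramide and is a known target of p53, was the only gene to fall among those with an adjusted p under 0.05 in the fit with the ribosomal share. It was at 279.9 to 3409.6 (median 792) normalized counts in Dox and 99.6 to 263 (median 166) in Dox + ABT, with a Veh median of 299. Every Dox + ABT rat lay below every Dox rat, and the top Dox values were 3409.6 in Dox rat 5 and 1565 in Dox rat 7. The difference was -2.14 ± 0.39 (SE), p = 6.9e-06, and with the ribosomal share -1.93, p = 2.7e-06, adjusted p = 0.03. Without Dox rats 1, 2, 5 and 7 it was -1.24, p = 0.0016.

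Dusp15, a phosphatase of oligodendrocytes, was the gene with the smallest p among those that rose. It was at 309 to 449 (median 385) in Dox and 444 to 572 (median 531) in Dox + ABT, with a Veh median of 408, and 7 of the 8 Dox + ABT rats were above every Dox rat. The difference was 0.50 ± 0.09 (SE), p = 3.4e-06, and with the share the adjusted p was 0.03. Slc30a1, the zinc exporter of the plasma membrane, fell without overlap. It was at 393 to 546 (median 495) in Dox, 319.9 to 386 (median 362) in Dox + ABT and a median of 402 in Veh. The difference was -0.40 ± 0.08 (SE), p = 3.9e-05, and -0.36, p = 0.00036 without Dox rats 1 and 2.

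Oxct1, which activates ketone bodies for oxidation in mitochondria, rose and was at 1156 to 1535 (median 1399) in Dox and 1482 to 2211 (median 1993) in Dox + ABT, a difference of 0.45 ± 0.09 (SE), p = 4.6e-05. Pgam2, the muscle form of phosphoglycerate mutase, fell and was at 70.5 to 148 (median 92.5) in Dox and 40.7 to 69.2 (median 58.1) in Dox + ABT with no overlap (-0.74, p = 5.1e-05). Gpd1, the cytosolic glycerol-3-phosphate dehydrogenase that links glycolysis with lipid synthesis, fell and was at 1722 to 3948 (median 2089) in Dox and 1080.5 to 1896 (median 1444) in Dox + ABT (-0.66, p = 0.00012). Of 41 genes listed for glycolysis and the citrate cycle, a list without Pgam2, 0 were higher and 1 was lower (2.44%, near the 2.32% over all genes), Pdk4, a kinase that shuts down pyruvate dehydrogenase, and the list had a median difference of -0.08 beside 0.0014 over all genes.

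Further genes chosen by the size of their p were a phosphoinositide phosphatase, Inpp5f (0.42, p = 7.3e-05), the arsenic methyltransferase As3mt (0.54, p = 0.00016), the Fc receptor-like gene Fcrl2 (0.86, p = 0.00019), Nif3l1 (0.57, p = 0.00018) and the scaffold Pdzd11 (0.40, p = 0.00033), all higher, and Zbtb22 (-0.41, p = 5.3e-05), Ankrd33b (-0.45, p = 7.8e-05) and Fam110b (-0.36, p = 0.00011), all lower. With the ribosomal share in the fit, Susd6, a target of p53, and Msrb2, which repairs oxidized methionine in mitochondria, were among the genes of smallest p (-0.44, p = 1.8e-05 and 0.45, p = 7.5e-05). The 12 genes of smallest p on each side, taken where the mean reached 50, make 24 genes, of which 22 have a symbol. All 22 were called without Dox rats 1 and 2, without Dox rats 5 and 7 and in each fit that left out 1 rat. Without all 4 of these rats 18 of the 22 were called. These genes were picked for their small p in the fit of all rats, so they were likely to stay called. Of all 629 calls 46.9% held without Dox rats 1 and 2, and 268 in every fit that left out 1 rat.

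**Figure D4:**
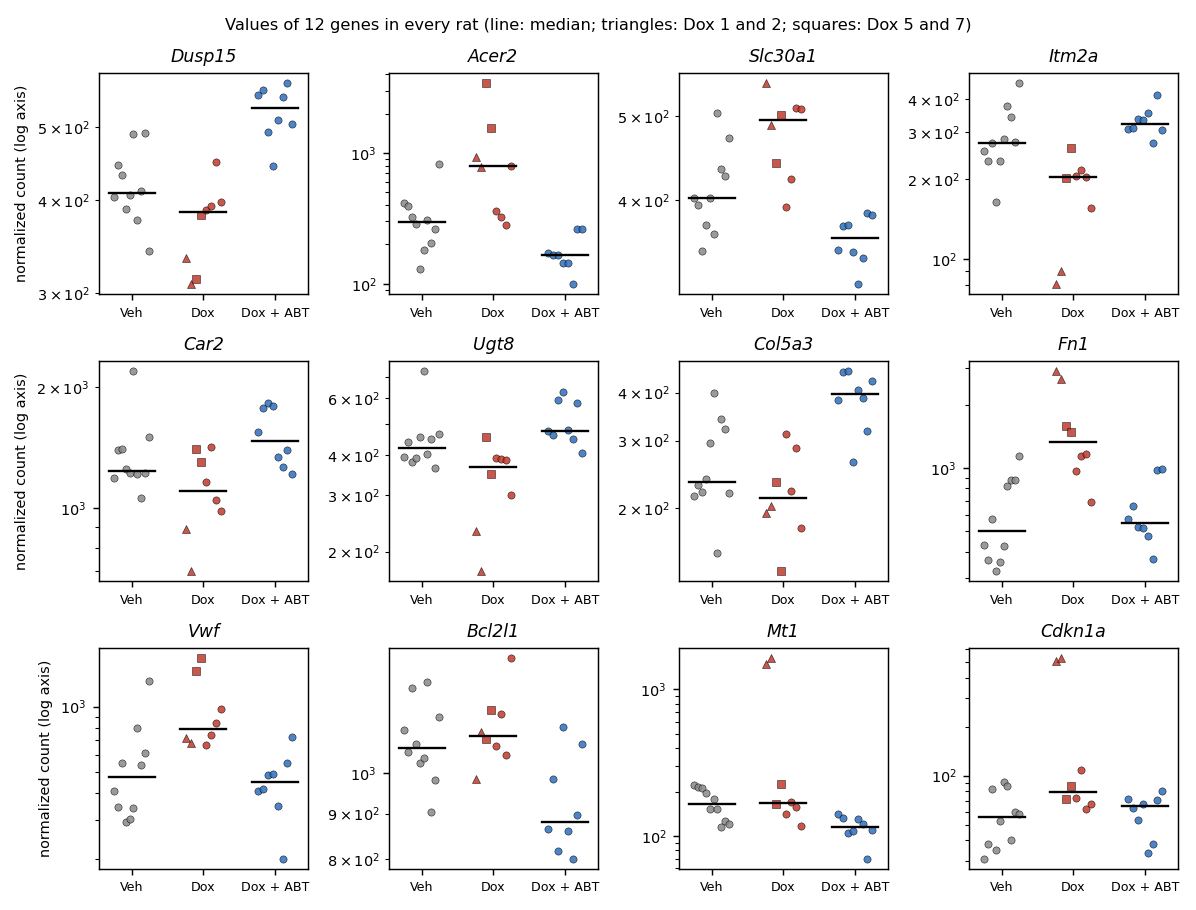
Normalized counts (log axis) of 12 genes in every rat by group, with 1 symbol per rat and a line at the group median. Acer2, Slc30a1 and Itm2a do not overlap between Dox and Dox + ABT, and the highest values of Mt1 and Cdkn1a are those of Dox rats 1 and 2 (triangles).

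Genes of the mature myelin sheath were among those that rose. Of 30 tested, 7 were higher (23.3%) and 0 lower in Dox + ABT, beside 1.71% higher over all genes, and the median difference of the list was 0.20. With the ribosomal share 8 were higher and the median was 0.23. Ugt8, which makes the galactosylceramide of myelin, was at 174 to 453 (median 368) in Dox and 405 to 625 (median 476) in Dox + ABT, with a Veh median of 421. Its difference was 0.65 ± 0.16 (SE), p = 0.00035. Car2, the carbonic anhydrase of oligodendrocytes, was at 698 to 1418 (median 1107) and 1216 to 1829.8 (median 1471) (0.47, p = 0.0025). Other called members were Opalin (0.61, p = 0.0045), the fatty acid hydroxylase Fa2h (0.41, p = 0.0047) and plasmolipin (Pllp; 0.36, p = 0.0097), and with the share also Mog (0.34, p = 0.0095). Mbp, which encodes myelin basic protein, was at 31287 to 52854 (median 38936) in Dox and 30785 to 73497 (median 39978) in Dox + ABT and was not called (0.14, p = 0.48).

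Ugt8 was at 231 and 174 in Dox rats 1 and 2 and at 300.3 to 453 in the other 6. Without Dox rats 1 and 2, 3 of 30 members were called, among them Ugt8 (0.42, p = 0.0033) and Opalin (0.72, p = 0.0019), beside 1.15% higher over all genes, and the list median was 0.17. Without all 4 rats 4 members were called, beside 1.42% higher and 1.79% lower over all genes, and the median was 0.12. Enpp2 (autotaxin), which oligodendrocytes and the choroid plexus secrete, rose with no overlap and was at 217 to 386 (median 336) in Dox and 405 to 609 (median 485) in Dox + ABT (0.65, p = 7.6e-05), and Enpp6, a marker of newly formed oligodendrocytes, rose and was at 24.6 to 73.6 (median 48.9) in Dox and 51.7 to 95.0 (median 72.0) in Dox + ABT (0.64, p = 0.00084). It was the only one of 23 genes of precursors and new oligodendrocytes to be called (4.35%), and Cspg4, the proteoglycan NG2 of precursors, stood at -0.31, p = 0.014. The oligodendrocyte genes Apod and Klk6 and the lectin gene Cd22 were also higher (0.67, p = 0.0012, 0.65, p = 0.0021 and 1.01, p = 3.5e-05).

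Genes that glucocorticoids induce made up the list with the greatest share of calls among those described. Of 28 tested, 12 were lower (42.9%) and 0 higher, beside 2.32% lower over all genes, and the median difference was -0.435. With the share 13 were lower, Sgk1 added (-0.55, p = 0.0098), and the median was -0.42. Klf9, a transcription factor that the glucocorticoid receptor switches on in hippocampal neurons, was at 2248 to 9073 (median 2865) in Dox and 1589 to 2577 (median 1857) in Dox + ABT, with a Veh median of 2650.0 (-0.77, p = 0.002). Zbtb16 was at 754 to 2926 (median 1149.6) and 599 to 921 (median 699) (-0.74, p = 0.0018). Fkbp5, the chaperone that dampens the receptor, was at 1859.8 to 4011 (median 2157) and 1537 to 2115 (median 1828) with a Veh median of 1879.7 (-0.43, p = 0.002). Mt1, a metallothionein that binds zinc, was at 116 to 1643 (median 168) and 69.8 to 140.3 (median 116) (-1.32, p = 0.0032). The others were Nfkbia (-0.90, p = 0.00084), the mTORC1 inhibitor Ddit4 (-0.52, p = 0.0044), the sulfotransferase Sult1a1 (-0.66, p = 0.0024), Cebpd (-0.44, p = 0.006), Cdkn1a (-1.10, p = 0.0077), Hif3a (-1.16, p = 0.0089), Pdk4 (-1.02, p = 0.0095) and the phagocytic receptor Mertk (-0.33, p = 0.0097). Per1 and Tsc22d3, also direct targets of the receptor, were not called (-0.16, p = 0.21 and 0.10, p = 0.64).

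For most of these genes the call depended on Dox rats 1 and 2. Fkbp5 was at 4011 and 3998 in Dox rats 1 and 2 and at 1859.8 to 2278 in the other 6, and Mt1 was at 1492 and 1643 against 116 to 225. Without these rats 3 of 28 members were lower, beside 1.82% over all genes: Klf9 (-0.81, p = 0.0037), Nfkbia (-0.49, p = 0.0071) and Mt1 (-0.50, p = 0.0087), and the list median was -0.22. Klf9 in turn was high in Dox rats 5 and 7, at 9073 and 4789.6 against 2248 to 3101, and without those its difference was -0.44, p = 0.017. Without Dox rats 5 and 7 the list had 12 lower and 1 higher member, beside 3.35% and 2.63% over all genes. Without all 4 rats it had 1 lower member, Ddit4 (-0.52, p = 0.0054), beside 1.79% lower over all genes, with a median of -0.21. At that size 4 Dox rats were compared with 8 Dox + ABT rats.

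Genes of the acute cytokine response through NF-kB were called lower in the same comparison. Of 47 tested, 9 were lower (19.1%) and 0 higher, beside 2.32% lower over all genes, with a list median of -0.265, and 10 were lower with the share. Il4r, a receptor chain for interleukins 4 and 13, was at 420.4 to 1117 (median 498) in Dox and 352 to 420.4 (median 380.2) in Dox + ABT (-0.65, p = 0.00033). Nfkbia, the inhibitor that NF-kB itself induces, was at 192 to 752 (median 259.9) and 122 to 247 (median 157) with a Veh median of 234. Tnf was at only 1.82 to 71.0 (median 5.05) and 0.337 to 2.51 (median 1.42) (-2.03, p = 0.00059), and Lrg1, an acute phase gene of endothelium, at 32.3 to 145 (median 51.2) and 12.1 to 47.0 (median 20.9) (-1.43, p = 0.0007). Socs3, Cd14, Ch25h, Nfkbib and Cebpd were the other called members, and Bcl3 passed with the share (-1.79, p = 0.0094). Dox rats 1 and 2 held the top values, as for Socs3 with 93.9 and 182 against 7.51 to 18.8 in the other 6 Dox rats, and Cd14 with 163 and 164 against 16.4 to 36.3. Without them 4 members were lower (8.51%, beside 1.82% over all genes), Il4r (-0.35, p = 0.00048), Tnf (-1.15, p = 0.0057), Nfkbia and Lrg1 (-1.09, p = 0.0083), with a list median of -0.05, and without all 4 rats Il4r alone was called (-0.39, p = 0.00059). With the share, Il4r was the 1 member called without Dox rats 1 and 2 (-0.34, p = 0.00053), which is 2.13% of the list beside 2.06% lower over all genes, and Nfkbia was at -0.42, p = 0.013. Leaving out Dox rats 5 and 7 instead gave 11 lower members (23.4%, beside 3.35% over all genes).

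The 250 bases before the start of Mt1 and Slc30a1 are shown because both genes handle zinc, are known targets of the zinc sensor MTF-1, and were lower in Dox + ABT. They were picked after their values were seen. Mt2A, another metallothionein gene, was not called by limma in either fit (-0.57, p = 0.019, and -0.48, p = 0.033 with the share). The call of Mt1 changed with the rats kept: without Dox rats 1 and 2 it was called without the share (-0.50, p = 0.0087) but not with it (-0.42, p = 0.015), nor was it called without all 4 rats (-0.36, p = 0.075). The sequences are those of RefSeq on GRCr8, 5′ to 3′ on the strand of the gene, at chr19:10832976-10833225 (minus strand) and chr13:106021769-106022018 (plus strand). Capitals mark matches on either strand to TGCACNC or TGCGCNC, the core of the metal response element.
Mt1: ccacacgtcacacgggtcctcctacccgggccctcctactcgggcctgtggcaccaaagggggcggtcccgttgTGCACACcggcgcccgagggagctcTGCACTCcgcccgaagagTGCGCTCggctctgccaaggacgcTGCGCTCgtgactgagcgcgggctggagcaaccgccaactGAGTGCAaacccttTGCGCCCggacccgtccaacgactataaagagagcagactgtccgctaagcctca
Slc30a1: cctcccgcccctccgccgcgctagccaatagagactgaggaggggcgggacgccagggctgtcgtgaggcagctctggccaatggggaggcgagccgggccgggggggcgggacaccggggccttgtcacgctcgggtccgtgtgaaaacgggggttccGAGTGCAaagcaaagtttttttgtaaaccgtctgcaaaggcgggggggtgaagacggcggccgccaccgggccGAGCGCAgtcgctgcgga
Mt1 held 6 matches, a number reached by 0.0269% of 33469 RefSeq promoters of this length, and Slc30a1 held 2, reached by 4.90%. At least 1 match stood in 20.6% of the promoters. The looser letters TGCNCNC gave 7 matches in Mt1 and 2 in Slc30a1, with at least 1 in 43.4% of the promoters. A match of letters is a description and not a bound site.

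Vessel genes were called in both directions. Of 39 endothelial and mural genes 4 were higher (10.3%) and 3 lower (7.69%), beside 1.71% and 2.32% over all genes, and the median difference was -0.09. Higher were Itm2a, a membrane protein of brain endothelium, the sialomucin Emcn, and the barrier transporters Slco1a4 and Slco1c1, which carry bile acids and thyroid hormone. Itm2a was at 80.6 to 261 (median 203) in Dox and 273 to 413 (median 322) in Dox + ABT without overlap (0.99, p = 4.4e-05), and Emcn at 8.54 to 67.0 (median 38.7) and 53.1 to 83.0 (median 67.4) (1.06, p = 0.00065). Slco1a4 was at 64.5 to 394 (median 249) and 292 to 461 (median 396) (0.91, p = 0.0029), and its Dox range came from 81.6 and 64.5 in Dox rats 1 and 2 beside 222 to 394 in the rest. Lower were Vwf, the clotting glycoprotein stored in endothelium, at 668 to 1675 (median 791) in Dox and a median of 449 in Dox + ABT (-1.09, p = 0.00042), the glucose transporter Slc2a1 at 1401 to 2518 (median 1769.7) and 889 to 1658 (median 1373) (-0.47, p = 0.003), and the lipid transporter Mfsd2a (-0.63, p = 0.0099), which lost its call with the share (-0.60, p = 0.014). Without Dox rats 1 and 2 the list had 2 higher (5.13%) and 4 lower (10.3%) members, beside 1.15% and 1.82% over all genes. There Itm2a (0.67, p = 0.00028) and Emcn (0.59, p = 0.0034) were still higher and Vwf still lower (-1.22, p = 0.00038), while Slc2a1 was at -0.33, p = 0.03. Without all 4 rats 4 members were higher and 0 lower, beside 1.42% and 1.79% over all genes, and Vwf just missed the threshold (-0.90, p = 0.0104). Cldn5, the tight junction protein, was not called (-0.57, p = 0.034).

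Of 33 vasoactive and hypoxia genes 6 were lower (18.2%) and 1 higher (3.03%), beside 2.32% and 1.71% over all genes. Without Dox rats 1 and 2 the list had 3 lower (9.09%, beside 1.82% over all genes) and 0 higher, or 1 lower with the share (3.03%, beside 2.06% over all genes). Without all 4 rats it had 2 lower and 1 higher, beside 1.79% and 1.42% over all genes. With all rats the lower ones were Adm (adrenomedullin, a vasodilator peptide) at 10.8 to 53.1 (median 30.2) in Dox and 2.41 to 17.7 (median 9.97) in Dox + ABT (-1.40, p = 0.00099), the adenosine receptor Adora2a at 59.8 to 103 (median 91.4) and 39.4 to 80.2 (median 54.4) (-0.58, p = 0.0024), Slc2a1, Ddit4, Hif3a and Angpt2, while the apelin receptor Aplnr was higher (1.60, p = 0.0032). With all rats and the share 5 were lower (15.2%, beside 2.76% over all genes) and 1 higher, and Angpt2 was not called (-1.30, p = 0.011). Angpt2, which loosens endothelial contacts, shows how the 4 rats entered: it was at 117, 101, 122 and 128 in Dox rats 1, 2, 5 and 7 and at 10.3 to 33.7 in the other 4. Without the share its difference was -1.41, p = 0.0064 with all rats and -0.0035, p = 0.99 without the 4. Adm was at -0.53, p = 0.2 without them, whereas Adora2a was at -0.70, p = 0.0024. Vegfa was not called (-0.03, p = 0.9).

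Blood RNA was unequal within the Dox group. Hba-a2 was at 31916 and 42089 in Dox rats 5 and 7, at 919 to 7476 in the other 6 and at 705 to 2919.9 (median 1289) in Dox + ABT (-1.59, p = 0.027). The red cell membrane gene Slc4a1 was at 982 and 1286 in those 2 rats and at 2.15 to 30.4 in the others. Of 12 haemoglobin and red cell genes limma called 0 in either fit, 4 had a p under 0.05 without the share, and the list median was -1.41 without and -0.92 with the share. It was 0.18 without all 4 rats. The part of blood in the differences of the vessel genes was not tested.

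Col3a1, a fibrillar collagen of fibroblasts, was at only 3.79 to 18.8 (median 8.34) in Dox, 16.9 to 75.5 (median 28.2) in Dox + ABT and a median of 22.5 in Veh (1.62 ± 0.31 (SE), p = 1.2e-05), and passed adjustment with the share (adjusted p = 0.045). Col5a3, a chain of type V collagen, was at 137 to 312 (median 213) and 263 to 457 (median 397) (0.83, p = 4.2e-05; adjusted p with the share 0.045). Of 18 meningeal and fibroblast genes 3 were higher (16.7%) and 0 lower, beside 1.71% higher over all genes, namely Col3a1, the retinoic acid enzyme Aldh1a2 (1.08, p = 0.00039) and the proteoglycan Lum (0.77, p = 0.0082), and the list median was 0.24. The count was 3 higher without Dox rats 1 and 2, beside 1.15% over all genes, and 1 higher (5.56%) without all 4 rats, beside 1.42%. The 5 meningeal markers examined, Dcn, Lum, Col1a1, Slc6a13 and Ogn, were above 0 in every rat and summed to 110.0 to 223 normalized counts in Dox and 132 to 369 in Dox + ABT, and the level of the list in Dox + ABT rat 3 was the highest of all rats, 0.771. Choroid plexus and ependymal genes had 2 of 14 higher (14.3%), Enpp2 and the bicarbonate transporter Slc4a5 (1.18, p = 0.0038); Ttr, the defining transcript of choroid plexus, was at 5.46 to 121 (median 31.8) and 15.9 to 310.1 (median 119) and was not called (1.63, p = 0.015). The part of these neighbouring tissues in the differences was not tested.

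Of 114 collagen, laminin and matrix genes 8 were higher (7.02%) and 6 lower (5.26%), beside 1.71% and 2.32% over all genes, and the list median was 0.06. With the share 5 were higher (4.39%) and 5 lower (4.39%), beside 1.96% and 2.76%, and the median was -0.00353. Fibronectin, Fn1, had the smallest p of the list's lower members and was at 691 to 2913 (median 1329) in Dox and 370.3 to 989 (median 548) in Dox + ABT with a Veh median of 502 (-1.23, p = 0.0002). Its 2 highest Dox values, 2913 and 2662, were those of Dox rats 1 and 2, and the difference was -0.91, p = 0.0029 without them and -0.69, p = 0.036 without all 4. Tinagl1, a glycoprotein of basement membranes that is not in the list, was at 82.6 to 253 (median 120.5) and 19.0 to 90.4 (median 53.3) (-1.53, p = 6.1e-05, and -0.98, p = 0.016 without all 4 rats). Among the other members, the metalloprotease Adamts12 and tenascin C (Tnc) were higher (p = 0.00047 and p = 0.0016), and elastin (Eln), Ccn2, Lamb2 and the inhibitor Timp3 were lower (-0.69, p = 0.0017, -0.91, p = 0.0024, -0.35, p = 0.0059 and -0.42, p = 0.0064). Tgfb3, a TGF-beta ligand, was at 231 to 319 (median 255) in Dox and 169 to 241 (median 197) in Dox + ABT (-0.40, p = 0.00015) and the only called ligand of 44 TGF-beta and BMP genes, with Ltbp1, which anchors the latent ligands in matrix, higher (0.94, p = 0.005, but 0.58, p = 0.027 without Dox rats 1 and 2). The receptor Tgfbr1 was higher without the share only (0.41, p = 0.0072, and 0.38, p = 0.011 with it).

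Of the transcripts of the ABT-263 targets, 1 was called. Bcl2l1, which encodes BCL-XL, was at 985 to 1348 (median 1102) in Dox and 800.5 to 1127 (median 881) in Dox + ABT with a Veh median of 1068, and 7 of 8 Dox + ABT rats were below the Dox median. The difference was -0.28 ± 0.08 (SE), p = 0.0022, -0.25, p = 0.0026 with the share and -0.32, p = 0.0053 without all 4 rats. Bcl2 was at 18.0 to 49.1 (median 24.6) and 9.69 to 29.1 (median 20.3) and was not called (-0.53, p = 0.026), nor was Bcl2l2, which encodes BCL-w, at 1991 to 2729.8 (median 2242) and 1912 to 2485 (median 2205) (-0.03, p = 0.64). Of 17 tested genes of the family 2 were lower (11.8%, beside 2.32% over all genes) and 0 higher, and the second was Pmaip1 (NOXA), a BH3-only protein induced by p53, at 29.1 to 122 (median 50.4) and 18.3 to 39.8 (median 28.8) (-0.96, p = 0.0034, and -0.61, p = 0.042 without Dox rats 1 and 2). Bax and Bak1 were not called (-0.07, p = 0.59 and -0.13, p = 0.36).

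Among 30 genes of senescence and p53, 2 were lower (6.67%, beside 2.32% over all genes) and 0 higher, both p53 targets. Cdkn1a, which encodes the cell cycle inhibitor p21, was at 62.2 to 530.3 (median 79.6) in Dox and 33.5 to 80.7 (median 65.0) in Dox + ABT with a Veh median of 55.4 (-1.10, p = 0.0077). Dox rats 1 and 2 had 510.4 and 530.3 and the other 6 Dox rats 62.2 to 109, and without these 2 rats the difference was -0.42, p = 0.1. Btg2, an antiproliferative gene, stood at -0.45, p = 0.0019 with all rats and -0.25, p = 0.022 without the 2. Lmnb1, the lamin that is lost in senescent cells, was higher with the share (0.37, p = 0.009987, and 0.56, p = 0.026 without it). Without Dox rats 1 and 2, limma called 0 of the 30 members without the share and 1, lower, with it (3.33%, beside 2.06% over all genes). Of 27 factors of the secretory phenotype 2 were lower (7.41%), Tgfb3 and the tissue plasminogen activator Plat (-0.63, p = 0.0011, and -0.37, p = 0.014 without Dox rats 1 and 2), and 0 higher.

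Of 39 microglia genes 2 were higher (5.13%, beside 1.71% over all genes), lysozyme Lyz2 (0.42, p = 0.0054) and the receptor Csf3r (0.86, p = 0.006, and 0.12, p = 0.53 without all 4 rats), and Cd14 was lower (2.56%, beside 2.32%). The median was 0.14, or 0.23 with the share, when 4 were higher (10.3%, beside 1.96% over all genes), Aif1 among them (0.46, p = 0.0037). Without Dox rats 1 and 2, in which the list level was -0.490 and -0.461, limma called 0 without the share and the median was -0.01. Complement C3 was at 97.4 to 451 (median 280.0) in Dox and 319.7 to 735 (median 461) in Dox + ABT (0.94, p = 0.00095), and at 0.54, p = 0.011 without Dox rats 1 and 2. Of 43 interferon response genes 2 were higher (4.65%), tetherin (Bst2; 1.01, p = 0.00024, and 0.43, p = 0.08 without all 4 rats) and Parp9 (0.48, p = 0.0013), and 2 lower (4.65%), Zc3hav1 (-0.35, p = 0.001) and Oas1f (-1.07, p = 0.0074). B2m, the light chain of MHC class I, was at 1591 to 2403 (median 1932) and 2095 to 2851 (median 2451) (0.34, p = 0.00075, and 0.41, p = 0.00076 without all 4 rats) and was the only one of 29 antigen presentation genes (3.45%) called without the share.

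Of the lists for mature granule cells (11 genes), CA fields and mossy cells (22), interneurons (26), sodium and calcium channels (28) and proliferation (26), limma called 0 members in either fit, and 2, 1, 0, 4 and 3 had a p under 0.05 without the share. Of 36 immediate early genes 2 were higher (5.56%) and 4 lower (11.1%), beside 1.71% and 2.32% over all genes. Npas4, an early gene of neuronal activity, was at 9.10 to 37.1 (median 10.6) in Dox and 17.4 to 79.4 (median 29.0) in Dox + ABT with a Veh median of 32.6 (1.20, p = 0.00099, and 0.81, p = 0.057 without all 4 rats), and Nr4a2 was also higher (0.64, p = 0.0029); Maff, an early gene of many cell types, was at 8.80 to 72.7 (median 41.9) and 1.61 to 11.6 (median 7.58) (-1.96, p = 0.00022, and -0.91, p = 0.074 without all 4 rats), and Klf4, Btg2 and Egr3 were lower as well. Fos, Arc and Egr1 were not called (-0.11, p = 0.63, 0.59, p = 0.049 and 0.21, p = 0.2). Of 79 potassium and HCN channel genes 5 were lower (6.33%) and 2 higher (2.53%): the inward rectifier Kcnj4 at 1859 to 2851 (median 2451) and 1703 to 2368 (median 1789) (-0.39, p = 0.00042), Kcnh3 (-0.29, p = 0.0028), Kcna5 (-0.67, p = 0.003), Kcnk1 and Kcnk2, against Kcnf1 (0.93, p = 0.0022) and Kcnj14. With the share 6 were lower (7.59%, beside 2.76% over all genes) and 1 higher (1.27%, beside 1.96%), Kcnf1, while Kcnj14 was not called.

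The kinases of the postsynaptic density that were called, Camk2a and Camk2b, were both lower (-0.36, p = 0.0069 and -0.34, p = 0.0081), at 17875 to 34386 (median 26036) and 17509 to 25903 (median 19256) for Camk2a, and they were the 2 called of 52 genes of glutamate receptors and their partners (3.85%, beside 2.32% lower over all genes). Both calls ended without Dox rats 1 and 2 (-0.32, p = 0.023 and -0.25, p = 0.055) and in 9 and 12 of the 16 fits that left out 1 rat, while without all 4 rats the values were -0.47, p = 0.002 and -0.39, p = 0.0065. The transcription factor Neurod1 of the granule cell lineage was lower (-0.38, p = 0.0014, but -0.27, p = 0.016 without Dox rats 5 and 7), and Neurod2 passed with the share (-0.40, p = 0.0066). The 20 tested genes of newborn neurons and progenitors had 0 higher and 1 lower, or 1 higher and 2 lower with the share, and a median difference of 0.02. Fgf1 was the only one of 37 neuropeptide and growth factor genes (2.70%, beside 1.71% higher over all genes) called without the share (0.66, p = 0.0055). In astrocytes the water channel Aqp4 was higher, at 2215 to 3383 (median 2469) and 2695 to 5216 (median 3544) (0.45, p = 0.0014), with the cystine transporter Slc7a11 (0.36, p = 0.0066), and the protease Htra1 was lower (-0.42, p = 0.0034), which makes 2 of 32 astrocyte genes higher (6.25%) and 1 lower (3.12%). With the share 4 were higher (12.5%) and 3 lower (9.38%), beside 1.96% and 2.76% over all genes. Leaving out Dox rats 1 and 2 gave 1 higher and 0 lower in both fits, with Slc7a11 at 0.20, p = 0.078 and Htra1 at -0.28, p = 0.038 without the share.

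Of 288 solute carrier genes 9 were higher (3.12%) and 3 lower (1.04%), beside 1.71% and 2.32% over all genes, and 10 were higher and 6 lower with the share. Higher members were the anion exchanger Slc26a7, at 7.04 to 21.6 (median 16.4) in Dox and 18.4 to 42.7 (median 31.1) in Dox + ABT (1.05, p = 9.7e-05), the phosphate transporter Slc20a1 (0.26, p = 0.00082) and the nucleotide sugar transporter Slc35d3 (0.89, p = 0.00092). Of 91 genes of drug metabolism and efflux 6 were higher (6.59%) and 2 lower (2.20%), with the steroid reductase Akr1c14 at 2.07 to 5.69 (median 4.26) and 4.82 to 29.0 (median 10.3) (1.32, p = 0.00085) and Akr1c15 (0.71, p = 0.0011) beside Ugt8 and Aldh1a2. Of 35 genes of cholesterol synthesis, Hmgcs1 was higher (2.86%) and the last enzyme of the pathway, Dhcr7, lower (2.86%; 0.29, p = 0.0097 and -0.53, p = 0.0033). Hmgcs1 was not called with the share (0.23, p = 0.011) or without all 4 rats (0.06, p = 0.58), and Dhcr7 was at -0.31, p = 0.043 without Dox rats 1 and 2. Genes with the largest fold also included the endothelial Apold1 at 49.3 to 518 (median 99.3) and 20.8 to 118 (median 36.8) (-1.64, p = 0.0016) and the phospholipase Pla2g3 (-1.54, p = 0.0037), which were at -0.98, p = 0.022 and -0.64, p = 0.036 without Dox rats 1 and 2.

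Aplnr, Tnc, Eln, Ccn2, Lamb2, Timp3, Nr4a2, Klf4, Egr3, Kcnk1, Kcnk2 and Kcnj14 were not followed singly in the fits without Dox rats 1, 2, 5 or 7. Their absence below does not mean that their calls held. The call of Aplnr ended without Dox rats 1 and 2, where its list had 0 higher members. Other calls described above also ended when rats were left out, in the fit without the share. Those of Akr1c15, Angpt2, Apod, Car2, Cd14, Cebpd, Ch25h, Csf3r, Ddit4, Fa2h, Fkbp5, Hif3a, Hmgcs1, Kcna5, Kcnf1, Lum, Lyz2, Mertk, Mfsd2a, Msrb2, Nfkbib, Pdk4, Pllp, Slco1a4, Slco1c1, Socs3, Sult1a1, Tgfbr1 and Zbtb16 ended without Dox rats 1 and 2, and those of Adm, Adora2a, Angpt2, Csf3r, Fa2h, Fgf1, Hmgcs1, Oas1f, Opalin, Pllp, Pmaip1 and Zbtb16 without Dox rats 5 and 7.

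The ribosomal share moved some lists as a whole. The 77 tested cytosolic ribosomal protein genes had a median difference of -0.21 without and -0.00434 with the share, which was computed from these same genes. Nuclear genes of oxidative phosphorylation (81) went from -0.10 to 0.02, proteasome genes (47) from -0.13 to -0.03 and mitochondrially encoded genes (13) from -0.01 to 0.17, and limma called 0 of each of these 4 lists without the share, where 3, 2, 5 and 0 genes had a p under 0.05. The glucocorticoid, NF-kB, myelin and meningeal lists moved by less than 0.05. The plot of calls by list sets the counts of both fits beside those without the rats that stood apart.

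**Figure D5:**
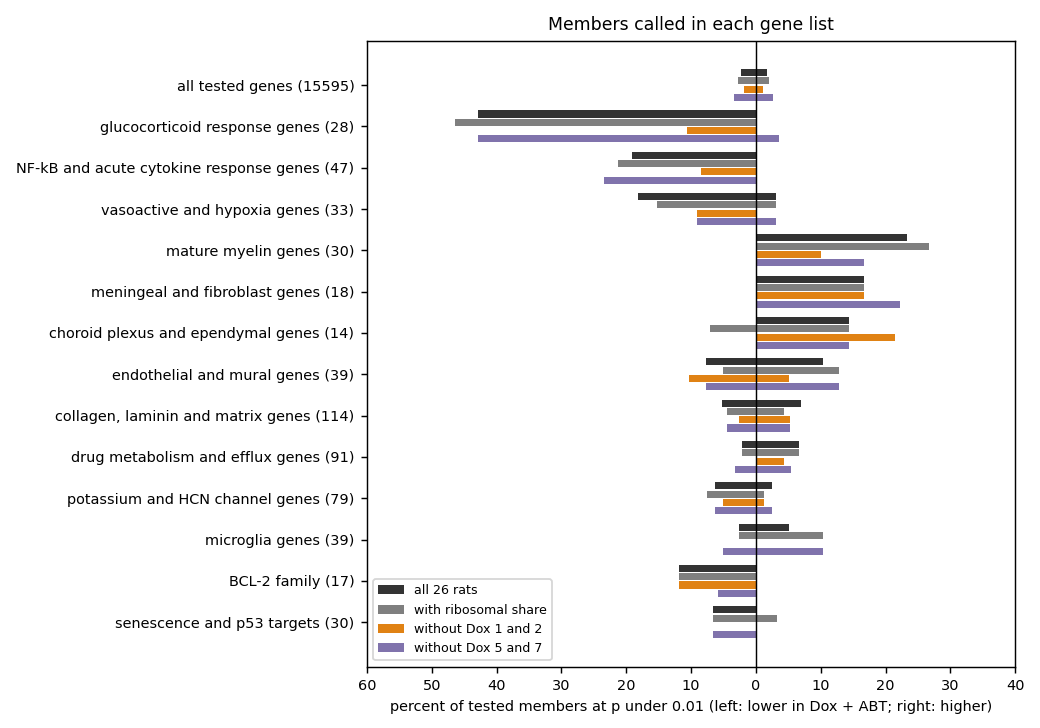
Percent of the tested members of each list called lower (left) or higher (right) in Dox + ABT than in Dox at p under 0.01, with the number of tested members in brackets and 1 bar for each of 4 fits. Of the glucocorticoid list 42.9% were lower with all 26 rats and 10.7% without Dox rats 1 and 2, and of the myelin list 23.3% and 10.0% were higher, beside 2.32% lower and 1.71% higher over all genes with all rats.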

How the data were processed

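RNA of the dentate gyrus was read on an Ion Proton after poly(A) selection, with 1 library for each of 26 rats. The deposited signal values are read counts that the authors aligned with STAR 2.5.3a to rn6, quantified in Partek and divided by the Median Ratio size factor of DESeq2. The deposited table has 24012 rows, which were summed to 17910 genes, and 0 columns of values lacked a sample. Low values were a whole number of reads, within 0.01, in 74.3% to 77.5% of cases for genes with 1 row and in 24.4% to 31.8% for genes with more, short of nearly all, so no count model was run. Here genes with a mean of 5 or more (15595) were fitted as log2(value + 1) with limma 3.58.1 in R 4.3.3 (eBayes with trend), with 1 term per group, two-sided, with and without the ribosomal protein share (79 genes, percent of the library total). The threshold was p under 0.01 without adjustment, and adjusted p-values are Benjamini-Hochberg over all genes tested. Labels say that each library is a separate rat, and no 2 libraries were identical (r 0.950 to 0.986 between libraries).

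The members, gene lists and tests were chosen with earlier results of these data known. Genes were named by rule: the 12 of smallest p on each side without and the 8 with the ribosomal share (mean 50 or more), all with an adjusted p under 0.05, the 3 members of smallest p in each list described (4 in lists of 40 or more), the 5 largest folds on each side, and the targets of ABT-263. Other genes in the text were chosen after their values were seen or are cell type markers, and genes without a symbol were counted but not named. Some genes that were tested and counted are not reported here by name. Alternatives changed the pseudocount, filter, scaling, weights, covariates and rats. Mcl1 and Pecam1 are not analysed here. Summaries and plots used Python 3.11.15 with pandas 2.3.3, numpy 2.4.6 and matplotlib 3.10.9. Promoters come from RefSeq (GRCr8), and no coordinates on rn6 are given.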

Additional observations from a re-analysis of the deposited data

Results flagged for a closer look

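In 5 of 168 tests of a group of 8 rats, 1 rat lay far from the others on the log2 scale by Dixon's criterion, which chance alone meets in about 1 of 20 groups. Col3a1 was at 75.48 normalized counts in Dox + ABT rat 3, and the next value was 30.63. Oxct1 was at 1156 in Dox rat 2, below the next value of 1352. Kcnj4 was at 2368 in Dox + ABT rat 12, above the next value of 1906. Slc4a5 was at 4.017 in Dox + ABT rat 6, below the next value of 9.075. Ltbp1 was at 2.347 in Dox rat 2, below the next value of 9.099.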

How the results depend on the processing

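The main counts were 629 called genes without and 736 with the ribosomal share. Weighting libraries by their quality (arrayWeights) gave 1612 and 1823, and the libraries of the first kind alone (5 Dox and 7 Dox + ABT, those with the lower ribosomal share) gave 1281 and 1692. The cause of these differences was not tested. Without Dox rats 5 and 7 the counts were 932 and 1409, without Dox rats 1 and 2 463 and 514, and without all 4 500 and 978. These rats were chosen after seeing the data. With the Dox and Dox + ABT rats alone 704 and 667 genes were called, with 506 of the 629 and 520 of the 736 kept. An adjusted p under 0.05 was reached by 667 genes without and 1045 with the share under arrayWeights. It was reached by 234 and 754 in the libraries of the first kind and by 25 and 359 without Dox rats 5 and 7. The number was 0 in both fits with robust eBayes, without a variance trend, with transcript rows as deposited and without Dox rats 1 and 2. It was 0 in both, too, without Dox rats 1, 2, 5 and 7 and with the Dox and Dox + ABT rats alone. With the share it was also 0 without Dox rat 1, Dox rat 2 or Dox + ABT rat 2, 5 or 6, and 57 without Dox rat 5. Leaving out 1 rat in turn gave 419 (without Dox + ABT rat 5) to 787 (without Dox rat 5) genes without and 504 (without Dox rat 2) to 1059 (without Dox rat 5) with the share, and 268 of the 629 and 325 of the 736 genes were called in every such fit. Of 81 genes named by rule and called without the share, 62 were called in every such fit. The ribosomal share difference ran from -0.2129 to -0.07343 percentage points with 1 rat left out, and was -0.03166 without Dox rats 5 and 7 and -0.01669 without all 4. With the replicate block, the number that Dox and Dox + ABT rats share in the labels (1, 2 and 5), 403 genes were called without and 684 with the share, and 205 of the 629 were kept. Deviations of rats with the same number correlated at 0.00721, 0.241 and 0.205, and not every rat correlated best with its own number, so the shared numbers were not taken as paired rats. Of 117 named genes called in at least 1 of the 2 fits, 0 reversed their direction with the share or in the alternatives of the fit without it, leaving out rats included. They were chosen for a small p, so a kept direction was likely beforehand. Angpt2 among them came down to -0.0035 without Dox rats 1, 2, 5 and 7. Genes that were not called are outside this count, and Tsc22d3 went from 0.10 without to -0.05 with the share. Low genes are limited by depth, since 1 read is a large step there, and p-values measure the spread between rats.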

Other observations

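Of 60 Wnt and Notch genes 4 were lower and 0 higher in Dox + ABT than in Dox by limma at p under 0.01, beside 2.32% lower over all genes, and 4 were lower and 1 higher with the ribosomal share. The ligands Wnt9a and Wnt16 were lower (-0.90, p = 0.00027 and -0.55, p = 0.0017), as were the receptor Fzd9 (-0.60, p = 0.0026) and the transcription factor Tcf7l1 (-0.46, p = 0.0016). Of 84 genes of axon guidance and adhesion 4 were higher (4.76%, beside 1.71% over all genes) and 3 lower (3.57%, beside 2.32%), and with the share the balance turned to 3 higher and 4 lower. The ephrin Efnb2 and the ephrin receptor Epha3 were higher (0.49, p = 0.0032 and 0.43, p = 0.006), with the semaphorins Sema3b and Sema3d, whereas the ephrin Efna3 was lower (-0.39, p = 0.0046).

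Of 87 genes of translation initiation and elongation 6 were lower with the share (6.9%, beside 2.76% over all genes). Without it 0 were higher and 3 lower (3.45%, beside 2.32%), namely Eef2k, the kinase that inhibits elongation factor 2 (-0.37, p = 0.00077), Eif4enif1 (-0.24, p = 0.0023) and the repressor Eif4ebp1 (-0.50, p = 0.0042). Of 161 splicing factor genes 2 were higher (1.24%) and 4 lower (2.48%), near the 1.71% and 2.32% over all genes. The genes named here were chosen after their values were seen.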
